A study of Mus musculus with 9 samples.

Results

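The states of mouse embryonic stem cells after CHIR99021 and after AICAR were compared directly, with the solvent control giving a reference level. The control arrays also entered the filter on dim probes, the choice of probe and the estimate of spread. The comparison was defined by the labels alone and holds 6 of the study's 9 arrays, 3 of cells given CHIR99021 and 3 of cells given AICAR. The cells were J1, an embryonic stem cell line of the 129S4/SvJae mouse strain, grown on gelatin in medium with the cytokine LIF at 1000 U/mL in all groups. The treated groups received 3 µM CHIR99021 or 1 mM AICAR for 24 h, the reference group received DMSO, and total RNA was hybridised to 1-colour Agilent arrays. All groups come from 1 cell line, and the labels number the samples without saying whether they came from separate cultures, so each p-value rests on the variation among arrays of a group, which may be only technical.

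CHIR99021 inhibits GSK3, the kinase that marks beta-catenin for degradation in a complex built on Axin and APC. Stabilised beta-catenin binds TCF/LEF factors at target genes, several of which encode inhibitors of the same pathway. In mouse embryonic stem cells this pathway acts with LIF in self-renewal, and it also switches on genes of the primitive streak, the first mesoderm-forming structure of the embryo. AICAR is a nucleoside that adenosine kinase converts to an intermediate of purine synthesis. That intermediate mimics AMP and activates AMPK, a kinase that holds back biosynthesis when cellular energy is low.

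Each value below is the log2 of the processed signal minus its array's 75th percentile, so a difference of 1 is 2-fold, and levels of different probes are not comparable. Unless stated otherwise a difference is CHIR99021 minus AICAR, given with its standard error and n = 3 arrays per group. A difference that passed has a Benjamini-Hochberg adjusted p under 0.05 in the limma fit over all 26866 features tested, of which 16090 carry a gene symbol. Between 62.8% and 67.2% of an array's spots were well above background. Across features, arrays of CHIR99021 correlated with those of AICAR at 0.973 to 0.975, and replicate arrays with each other at 0.995 to 0.996. The SD over replicate arrays had a median of 0.09 with CHIR99021 and 0.11 with AICAR. Every slide and scan held arrays of 1 treatment, so treatment and slide cannot be told apart for any value given here.

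Of all features, 16328 (60.8%) passed the test, 9722 (36.2%) higher in CHIR99021 and 6606 (24.6%) higher in AICAR. Most of these differences were small, with 53.9% under 1.5-fold. At least 2-fold apart were 3645 features (13.6%), of which 1413 (5.26%) were higher in CHIR99021 and 2232 (8.31%) higher in AICAR, and these shares are the background for the counts of list members below. A test against a 2-fold difference was passed by 1702 features (6.34%), 662 (2.46%) in the CHIR99021 direction and 1040 (3.87%) in the AICAR direction. The arrays of the groups did not overlap for 17592 features (65.5%). The direction of small differences depended on the scaling: the share of passing features that were higher in CHIR99021 was 59.5% here, 50.7% after quantile normalization and 35.2% when arrays were scaled on spike-in control probes. The median difference of all features moved from 0.10 to 0.03 and -0.09 with these scalings. Among features at least 2-fold apart the share higher in CHIR99021 was 38.8%, 37.2% and 25.9%.

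**Figure D1:**
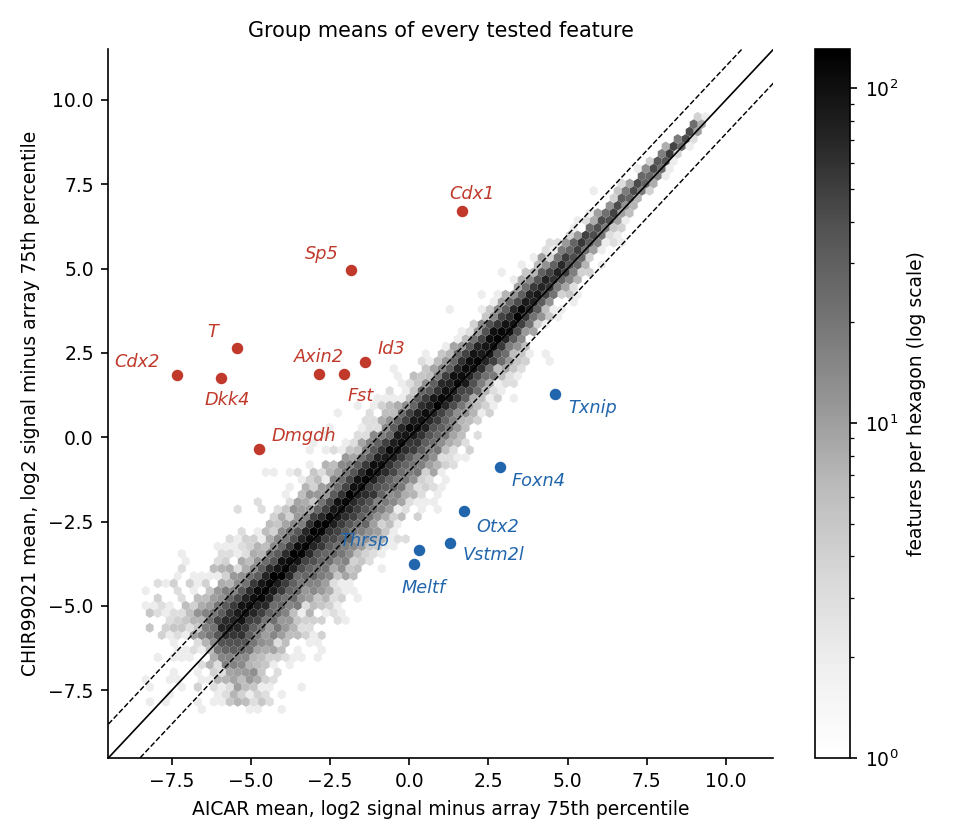
Mean log2 signal minus the array's 75th percentile of each of the 26866 tested features, AICAR on the x axis and CHIR99021 on the y axis, with 3 arrays behind each mean, the shade giving the number of features per hexagon on a log scale, the solid line equality and the dashed lines a 2-fold difference. Marked genes higher in CHIR99021 are red and those higher in AICAR are blue, and Cdx2 was not well above background on the AICAR arrays.

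Several of the widest differences in the CHIR99021 direction lay in genes known as Wnt targets. Before their values, stretches of promoter are printed for those whose upstream sequence held the letters that TCF/LEF factors are known to bind. The letters searched were CTTTGAA and CTTTGAT on both strands in the 250 bases before each start site of the RefSeq promoter table for build GRCm38.p6. They were in 2457 of 32851 promoters (7.48%), and in at least 1 promoter of 877 of the 12788 tested genes with an entry (6.86%). Among genes past the 2-fold test they were found for 39 of 304 higher in CHIR99021 (12.8%) and for 31 of 599 higher in AICAR (5.18%). Of the Wnt target list 4 of 16 genes with an entry had them, and of the Wnt feedback list 1 of 10. The target list holds genes chosen as known targets of this pathway. The promoters of Cdx2 and Axin2 in the table did not hold these letters in this window. The upstream stretches of Sp5 (chr2:70474673-70474922, plus strand), T (chr17:8434173-8434422, plus strand) and Dkk1 (chr19:30549497-30549746, minus strand) are shown 5′ to 3′ with the match in capitals. The match begins 104 bases before the start in Sp5, 235 in T, where it reads in the reverse orientation, and 117 in Dkk1.
Sp5: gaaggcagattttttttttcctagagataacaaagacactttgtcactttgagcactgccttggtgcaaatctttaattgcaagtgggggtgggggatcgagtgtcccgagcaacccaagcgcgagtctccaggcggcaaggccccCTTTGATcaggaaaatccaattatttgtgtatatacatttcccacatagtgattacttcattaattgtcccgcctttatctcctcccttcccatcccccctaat
T: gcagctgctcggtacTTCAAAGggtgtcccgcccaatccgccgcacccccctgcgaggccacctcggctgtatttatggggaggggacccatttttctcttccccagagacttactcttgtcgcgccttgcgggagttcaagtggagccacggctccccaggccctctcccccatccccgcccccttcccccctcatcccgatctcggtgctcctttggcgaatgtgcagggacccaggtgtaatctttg
Dkk1: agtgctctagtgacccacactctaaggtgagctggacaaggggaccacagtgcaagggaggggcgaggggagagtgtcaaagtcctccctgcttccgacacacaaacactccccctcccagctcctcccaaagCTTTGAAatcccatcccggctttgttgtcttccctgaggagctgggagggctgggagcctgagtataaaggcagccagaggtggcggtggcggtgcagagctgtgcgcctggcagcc
A match of letters is a description of the sequence and was not tested for binding.

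Of 21 tested Wnt/beta-catenin target genes, 16 passed as higher in CHIR99021 and 4 as higher in AICAR, and 9 and 2 of them were at least 2-fold apart. The list's median difference was 0.89 against 0.10 over all features. Sp5, a transcription factor gene that Wnt signalling switches on directly, read 4.93, 4.99 and 5.0 on the CHIR99021 arrays and -1.88, -1.84 and -1.85 on the AICAR arrays, a difference of 6.83 ± 0.07 (adjusted p = 4.68e-09). T, which encodes the primitive streak factor brachyury, read 2.67, 2.68 and 2.64 against -5.74, -5.52 and -5.08, a difference of 8.10 ± 0.23 (adjusted p = 1.21e-07). The arrays of each treatment lay close together and far from those of the other for both genes. In DMSO, T read -6.09, -5.48 and -5.27, within the range of the AICAR values or below it, and it was well above background on 2 of those 3 arrays.

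The caudal-type homeobox genes Cdx1 and Cdx2, which pattern the posterior embryo, were among the widest differences. Cdx1 read 6.74, 6.68 and 6.67 with CHIR99021 and 1.68, 1.65 and 1.64 with AICAR, a difference of 5.04 ± 0.05 (adjusted p = 2.31e-09), and DMSO was lower than both at 0.18, 0.25 and 0.14. Cdx2 was not well above background on any AICAR array. Its means were 1.85 with CHIR99021 and -7.33 with AICAR, which makes it at least 238-fold higher in CHIR99021 (adjusted p = 3.36e-07), a bound set against the lowest signal of probes well above background on those arrays. DMSO stood between at a mean of -5.42. The Cdx2 difference was as small as 5.177 over the alternatives. Fst, which encodes the activin and BMP antagonist follistatin, read 1.91, 1.82 and 1.91 against -2.14, -1.98 and -2.09, a difference of 3.95 ± 0.07 (adjusted p = 2.07e-08). The DMSO arrays of Fst, at -2.22, -2.03 and -2.0, overlapped the AICAR arrays.

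Myc and Lef1 showed a different order of the 3 groups. Myc, the growth-promoting transcription factor, read 0.34, 0.24 and 0.34 with CHIR99021 and -2.88, -2.91 and -2.66 with AICAR, a difference of 3.13 ± 0.08 (adjusted p = 9.56e-08). Its DMSO arrays, at 1.02, 0.84 and 0.85, were the highest of the 3 groups. Lef1, one of the DNA-binding partners of beta-catenin, read 2.33, 2.38 and 2.32 against 0.08, 0.02 and 0.00, a difference of 2.31 ± 0.06 (adjusted p = 7.36e-08), with DMSO at 2.47, 2.58 and 2.40. For both genes the CHIR99021 arrays lay near the control and the AICAR arrays stood apart below. Ccnd1, the gene of cyclin D1, was 0.89 ± 0.05 higher in CHIR99021 (adjusted p = 3.59e-06), and the adhesion receptor gene Cd44 differed by 0.17 ± 0.08 (adjusted p = 0.106), which passed only with normexp (adjusted p = 0.0254). The 2 target genes at least 2-fold higher in AICAR, named after their values were seen, were Jun, an AP-1 subunit, by 1.08 ± 0.11, and Id2, an inhibitor of helix-loop-helix factors, by 1.09 ± 0.07, and neither stayed past 2-fold with normexp background correction. Without CHIR99021 replicate 2 Jun also fell below it. The other 2 that passed in that direction were Ascl2 and Ppard.

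Feedback inhibitors of the pathway divided by gene. Of 16 tested, 9 passed as higher in CHIR99021 and 4 as higher in AICAR, and 6 and 3 were at least 2-fold apart, with a median of 0.32, which was 0.13 with spike-in scaling. Axin2, the scaffold protein and a standard readout of beta-catenin activity, read 1.94, 1.80 and 1.87 against -3.04, -2.87 and -2.68, a difference of 4.73 ± 0.09 (adjusted p = 2.73e-08), with DMSO at -3.30, -3.26 and -3.18. Dkk4, a secreted blocker of the Wnt co-receptor, read 1.71, 1.82 and 1.73 against -6.35, -6.14 and -5.34, a difference of 7.70 ± 0.26 (adjusted p = 2.83e-07), and only 1 of the 3 AICAR arrays was well above background. Its relative Dkk1 was not well above background on any AICAR array and was at least 6.01-fold higher in CHIR99021 (means -3.46 and -8.07; adjusted p = 2.08e-06). Over the alternatives the Dkk1 difference was as small as 0.988. Sfrp5, a secreted Wnt antagonist, went the other way and read -3.03, -3.03 and -3.28 with CHIR99021 and -0.12, -0.13 and -0.30 with AICAR, 2.93 ± 0.09 higher in AICAR (adjusted p = 1.56e-07). Its DMSO arrays, at -1.34, -1.38 and -1.24, lay between the treated groups, with no overlap. Dact1, an intracellular adaptor, and Sfrp1, a secreted antagonist, were 1.59 ± 0.12 and 1.01 ± 0.05 higher in AICAR (adjusted p = 9.71e-06 and 1.73e-06), and Kremen1 passed below 2-fold. Apcdd1 and Shisa2, also antagonists of Wnt signalling, differed by 0.01 ± 0.08 and -0.11 ± 0.05 and did not pass (adjusted p = 0.933 and 0.103), although Shisa2 passed with spike-in scaling (adjusted p = 0.0227).

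Wnt ligands also split. Of 13 tested, 3 passed as higher in CHIR99021 and 7 as higher in AICAR, 2 and 4 of them at least 2-fold apart, with a median of -0.61. With normexp the 4 became 1 and the median -0.10. Wnt8a, a ligand of the early primitive streak, read -2.08, -2.24 and -2.04 with CHIR99021 and -5.46, -5.29 and -5.48 with AICAR, a difference of 3.30 ± 0.07 (adjusted p = 5.25e-08), and DMSO, at -1.87, -1.87 and -1.78, was higher than both. Wnt5b, a ligand of noncanonical signalling, was 3.69 ± 0.07 higher in CHIR99021 (adjusted p = 2.07e-08). Wnt9a read -3.53, -3.41 and -3.28 with CHIR99021 and -0.98, -0.80 and -0.93 with AICAR, 2.50 ± 0.08 higher in AICAR (adjusted p = 2.46e-07), and Wnt10a was 2.16 ± 0.16 higher in AICAR (adjusted p = 1.15e-05). Wnt7b and Wnt10b were not well above background with CHIR99021 and were at least 2.38-fold and 1.34-fold higher in AICAR (means -4.49 and -5.84, -5.37 and -7.12; adjusted p = 0.000275 and 0.0153), and Wnt10b did not pass without CHIR99021 replicate 2, CHIR99021 replicate 3 or AICAR replicate 2 (adjusted p = 0.052, 0.0517 and 0.0534), or with normexp (adjusted p = 0.371). The Wnt7b difference was as small as -0.175 over the alternatives. Wnt1 was the third ligand to pass as higher in CHIR99021. Wnt5a differed by 0.01 ± 0.10 and did not pass (adjusted p = 0.946).

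Of the receptors 14.3% were at least 2-fold apart and of the transduction machinery 7.69%, against 13.6% of all features. Of 14 receptors 1 was at least 2-fold higher in each direction. Fzd10 was 2.58 ± 0.04 higher in CHIR99021 (adjusted p = 1.37e-08) and Fzd9 1.03 ± 0.07 higher in AICAR (adjusted p = 6.91e-06), both of them Frizzled receptors, while the co-receptors Lrp5 and Lrp6 differed by 0.12 ± 0.07 and -0.04 ± 0.04 and did not pass (adjusted p = 0.184 and 0.489). The Fzd9 difference fell below 2-fold without CHIR99021 replicate 1 or CHIR99021 replicate 3 and with normexp, and Lrp6 passed as higher in AICAR after quantile normalization (adjusted p = 0.00439). Among 13 TCF/LEF factors and members of the destruction complex, Lef1 was the only one 2-fold apart. Tcf7, an activating partner of beta-catenin, was 0.83 ± 0.08 higher in CHIR99021 (adjusted p = 5.36e-05), and Tcf7l1, the repressor of the family in these cells, 0.76 ± 0.09 higher in AICAR (adjusted p = 0.000121). The genes of the inhibited kinases, Gsk3a and Gsk3b, differed by 0.10 ± 0.09 and 0.14 ± 0.11 and did not pass (adjusted p = 0.346 and 0.312), and the probes of Gsk3b disagreed in sign. Both passed as higher in CHIR99021 without AICAR replicate 1 (adjusted p = 0.0288 and 0.0223).

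**Figure D2:**
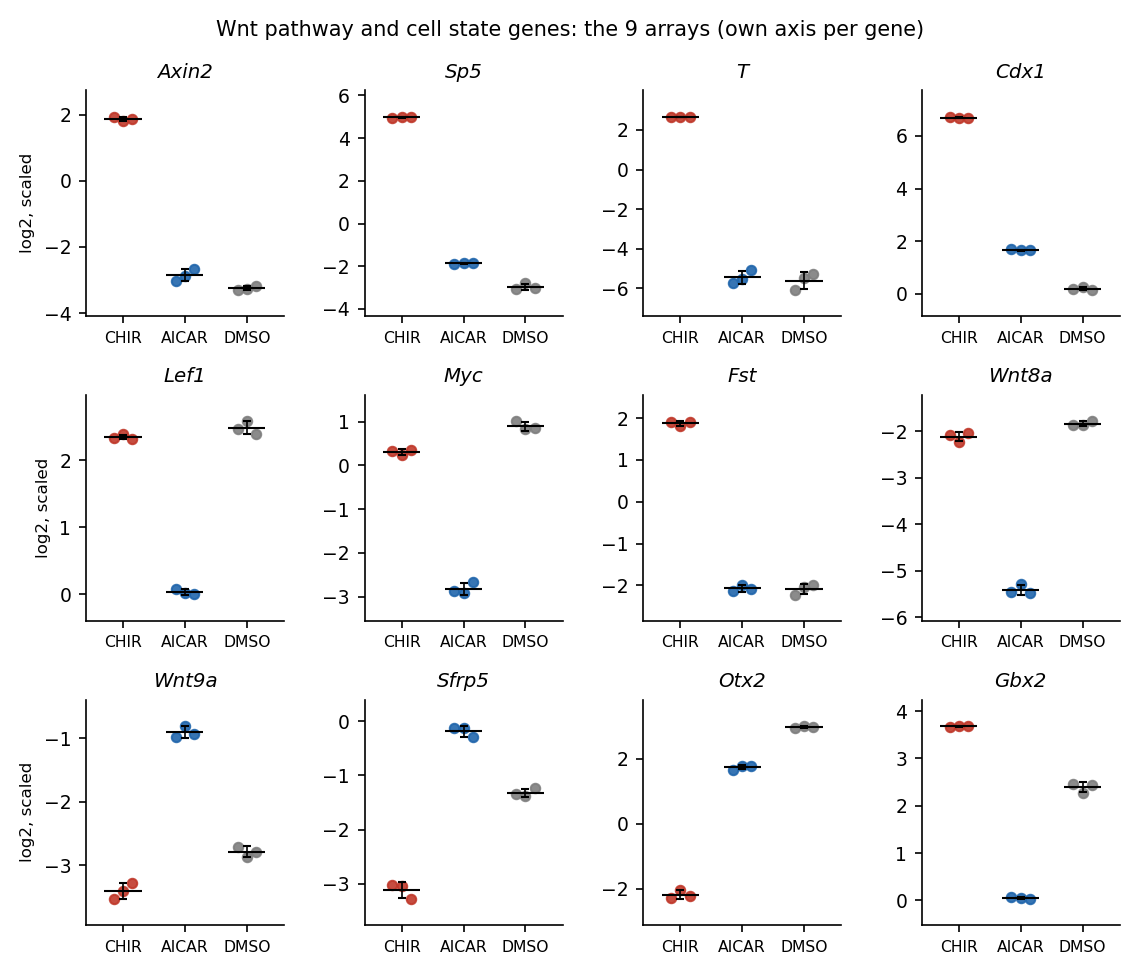
Log2 signal minus the array's 75th percentile on each of the 9 arrays for 12 genes of the Wnt pathway and of cell state, by treatment, with an axis of its own for each gene, points for arrays, bars for the mean and whiskers for the SD of 3 arrays. In none of the 12 genes do the CHIR99021 and AICAR arrays overlap, and Lef1, Myc and Wnt8a have the DMSO arrays near the CHIR99021 arrays.

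Hox genes, the clustered homeobox genes that set position along the body axis, differed in 1 direction. Of 39 genes 27 were tested, 24 of these passed as higher in CHIR99021 and none as higher in AICAR, and 17 were at least 2-fold apart, with a median of 2.45. The remaining 12 stayed under the filter on dim probes, which keeps a gene that is bright in only 1 group, so the count over tested genes is not one over the whole cluster. Hoxb8 was not well above background on any AICAR array and was at least 15.0-fold higher in CHIR99021 (means -2.14 and -6.87; adjusted p = 8.1e-06). Hoxb1 was likewise at least 9.37-fold higher (means -2.82 and -7.61; adjusted p = 6.03e-07) and Hoxb3 at least 8.19-fold higher (means -3.01 and -6.55; adjusted p = 1.06e-06). The differences of Hoxb8, Hoxb1 and Hoxb3 were as small as 1.66, 1.255 and 1.028 over the alternatives. Hoxb2, measured on all arrays, read -1.98, -1.96 and -1.88 with CHIR99021 and -5.77, -5.81 and -5.67 with AICAR, a difference of 3.81 ± 0.05 (adjusted p = 1.2e-08). DMSO means took different places among these 4 genes: -3.34 for Hoxb1 and -2.05 for Hoxb2, each nearer the CHIR99021 mean, and -5.78 for Hoxb8 and -5.33 for Hoxb3, each nearer the AICAR mean. Over the 17 genes, DMSO lay above both treated means in 1, below both in 5, nearer CHIR99021 in 6 and nearer AICAR in 5. Under normexp background correction 24 passed, 10 were at least 2-fold apart and the median was 0.71. At least 2-fold apart were 7 when only probes well above background on all 9 arrays were tested. Hoxd1 and Hoxa6 differed by 0.19 ± 0.20 and -0.08 ± 0.13 and did not pass (adjusted p = 0.431 and 0.627).

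Genes of the primitive streak and mesendoderm did not follow T as a group. Of 16 tested, 2 were at least 2-fold higher in CHIR99021 and 2 in AICAR (1 and 1 with normexp), and the median was 0, or -0.19 with spike-in scaling. Evx1, a posterior streak homeobox gene, was well above background on no AICAR or DMSO array and was at least 23.4-fold higher in CHIR99021 (means -1.50 and -8.11; adjusted p = 5.29e-09). The Evx1 difference was as small as 2.113 over the alternatives. Foxa2, an endoderm factor, was 2.77 ± 0.27 higher in CHIR99021 (adjusted p = 5.55e-05), and 2 of the 3 AICAR arrays measured it above background. The mesoderm factors Mesp1 and Mesp2 went the other way, 1.38 ± 0.11 and 2.05 ± 0.11 higher in AICAR (adjusted p = 1.37e-05 and 1.87e-06). Eomes, an early mesendoderm factor, was 0.43 ± 0.06 higher in CHIR99021 (adjusted p = 0.000553, and 0.0836 with spike-in scaling), and Lhx1, a node factor, differed by -0.05 ± 0.09 and did not pass (adjusted p = 0.643). In RNA from whole cultures, fewer cells of a type and less RNA per cell cannot be told apart.

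Core pluripotency genes were at least 2-fold apart about as often as all features, 13.3% against 13.6%. Of 15 tested, 11 passed as higher in CHIR99021 and 1 as higher in AICAR, with 1 in each direction at least 2-fold apart and a median of 0.29. After quantile normalization 7 and 4 passed with a median of 0.15, and with spike-in scaling 4 and 2 with a median of 0.10. The genes of the core factors Pou5f1 and Sox2 differed by -0.28 ± 0.18 and -0.10 ± 0.06, that of Nanog by -0.17 ± 0.10, and none passed (adjusted p = 0.203, 0.201 and 0.194). These calls depended on the processing: after quantile normalization Pou5f1 and Sox2 were 0.52 and 0.31 higher in AICAR and passed (adjusted p = 0.0349 and 0.00221). Pou5f1 also passed with normexp (adjusted p = 0.0392) and Sox2 with spike-in scaling (adjusted p = 0.0197). Nanog passed in that direction with spike-in scaling (adjusted p = 0.0463) or without AICAR replicate 3 (adjusted p = 0.028). Otx2, which drives cells from the naive toward the primed epiblast state, read -2.29, -2.03 and -2.23 with CHIR99021 and 1.66, 1.77 and 1.78 with AICAR, 3.92 ± 0.07 higher in AICAR (adjusted p = 2.07e-08). Its DMSO arrays, at 2.95, 3.02 and 2.98, were higher still. Lin28a, an RNA-binding regulator of let-7 microRNAs, was 1.30 ± 0.07 higher in CHIR99021 (adjusted p = 2e-06).

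Of 22 naive pluripotency genes 4 were at least 2-fold higher in CHIR99021 and 1 in AICAR, with a median of 0.38, which was 0.21 after quantile normalization and 0.19 with spike-in scaling. Gbx2, a homeobox factor that sustains self-renewal downstream of LIF, read 3.66, 3.69 and 3.68 against 0.07, 0.05 and 0.03, a difference of 3.63 ± 0.06 (adjusted p = 1.72e-08), and DMSO at 2.47, 2.27 and 2.45 lay between, with no overlap. Dppa3, a maternal factor also called Stella, was 1.88 ± 0.08 higher in CHIR99021, Tfcp2l1, a factor at which LIF and GSK3 inhibition meet, 1.42 ± 0.05, and the nuclear receptor gene Nr0b1 1.28 ± 0.06 (adjusted p = 6.14e-07, 3.1e-07 and 7.56e-07). Fgf4, the ligand that starts ERK signalling in these cells, was 1.16 ± 0.04 higher in AICAR (adjusted p = 3.8e-07). Smaller differences passed for Zfp42 (0.63 ± 0.08), Klf2 (0.49 ± 0.06), Esrrb (0.29 ± 0.05) and Klf4 (0.24 ± 0.04), all factors of the naive network (adjusted p = 0.000169, 0.000288, 0.00145 and 0.00104). With spike-in scaling Klf2, Esrrb and Klf4 no longer passed (adjusted p = 0.071, 0.445 and 0.736), nor did Esrrb and Klf4 after quantile normalization (adjusted p = 0.153 and 0.694). In all, 15 of the 22 passed as higher in CHIR99021 and 3 (Fgf4, Tcl1 and Socs3) as higher in AICAR, and these counts were 11 and 5 after quantile normalization and 8 and 4 with spike-in scaling.

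Primed epiblast genes went both ways, 10 passing in each direction of 21 tested, and 6 against 10 with spike-in scaling. Besides Fst, Wnt8a and Otx2 above, the tight junction gene Cldn6 was 1.74 ± 0.10 higher in AICAR (adjusted p = 2.66e-06). Tdgf1, the Nodal co-receptor Cripto, was 0.99 ± 0.06 higher in AICAR and Nodal itself 0.72 ± 0.06 (adjusted p = 3.53e-06 and 1.34e-05). The DNA methyltransferase genes Dnmt3b and Dnmt3l were 0.96 ± 0.05 and 0.40 ± 0.07 higher in CHIR99021 (adjusted p = 2.71e-06 and 0.00186), and Dnmt3l did not pass with spike-in scaling (adjusted p = 0.163).

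Genes of the 2-cell-like state, a rare state of these cultures that expresses genes of the early cleavage embryo, were mostly higher in CHIR99021. Of 13 tested, 11 passed in that direction and 1 in the other, 6 were at least 2-fold higher in CHIR99021 and none in AICAR, with a median of 0.71. With normexp the 6 became 3 and the median 0.27, and with spike-in scaling the 11 became 7. Zscan4c, a member of the family that marks this state, read 0.13, 0.11 and 0.14 with CHIR99021 and -2.41, -2.71 and -2.94 with AICAR, a difference of 2.82 ± 0.12 (adjusted p = 7.43e-07). Its DMSO arrays, at 0.99, 0.86 and 0.91, were the highest, and the DMSO mean lay above both treated means for all 6 genes. Zscan4a and Zscan4f differed by 2.96 ± 0.09 and 2.95 ± 0.07 (adjusted p = 1.84e-07 and 6.16e-08), though probes of such near-identical copies may bind each other's transcripts. Usp17lb, a deubiquitinase gene of the same state, was not well above background with AICAR and was at least 4.98-fold higher in CHIR99021 (means -3.73 and -6.97; adjusted p = 2.46e-05). Over the alternatives its difference was as small as 0.64.

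Pramel genes, a cluster expressed in early embryos, split by member, 4 at least 2-fold higher in CHIR99021 and 2 in AICAR of 7 tested. Pramel16, Pramel6 and Pramel7 were not well above background with AICAR and were at least 5.57-fold, 2.52-fold and 1.95-fold higher in CHIR99021 (means -3.57 and -6.85, -4.71 and -6.76, -5.08 and -6.56; adjusted p = 2.55e-05, 0.00224 and 0.00179). Pramel13 was 1.67 ± 0.06 higher in AICAR (adjusted p = 3.38e-07). Pramel12, 1.01 ± 0.07 higher in CHIR99021 (adjusted p = 8.04e-06), and Pramel3, at least 1.41-fold higher in AICAR (means -5.29 and -6.65; adjusted p = 0.0167), made up the counts. Pramel3 was above background on 2 of the 3 AICAR arrays and did not pass without AICAR replicate 1 or AICAR replicate 2 (adjusted p = 0.0582 and 0.0573), or with normexp (adjusted p = 0.135). With normexp none of the 4 remained past 2-fold in CHIR99021 and 1 of the 2 remained in AICAR, as it did without CHIR99021 replicate 2, AICAR replicate 1 or AICAR replicate 2.

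Growth genes were compared next. Of 32 genes of ribosome biogenesis 30 passed as higher in CHIR99021 and none as higher in AICAR, with a median of 0.60, while 2 reached 2-fold. Pes1, a nucleolar factor of large subunit assembly, read 3.16, 3.30 and 3.29 against 1.29, 1.45 and 1.43, a difference of 1.86 ± 0.06 (adjusted p = 3.08e-07). Its other probe differed by 0.40, and the mean of both by 1.13. Gnl3, the nucleolar GTPase nucleostemin, differed by 1.07 ± 0.08, and the nucleolar proteins Nifk and Nop2 by 1.0 ± 0.06 and 0.99 ± 0.06 (adjusted p = 9.32e-06, 2.33e-06 and 4.06e-06). Nop2 read 5.85, 5.86 and 5.97 with CHIR99021 and 4.93, 4.91 and 4.88 with AICAR, and DMSO, at 5.65, 5.57 and 5.75, lay near the CHIR99021 arrays. Quantile normalization left 24 of the 32 passing and spike-in scaling 19, none of them higher in AICAR in either. The count past 2-fold was between 1 and 5 over the alternatives, with 5 without CHIR99021 replicate 2 and 4 without CHIR99021 replicate 1, AICAR replicate 2 or AICAR replicate 3.

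The 28 ribosomal protein genes, which build the ribosome itself, differed little. Of these 19 passed as higher in CHIR99021 with a median of 0.20, but under quantile normalization none and under spike-in scaling none did. Within the Myc and Max network, Mxd4 and Mxd3, antagonists of Myc at E-boxes, were 2.34 ± 0.08 and 1.29 ± 0.09 higher in AICAR (adjusted p = 3.23e-07 and 5.85e-06). Mycl was 0.97 ± 0.08 higher in CHIR99021 (adjusted p = 1.42e-05), whereas Mycn and the shared partner Max differed by 0.06 ± 0.07 and 0.09 ± 0.07 and did not pass (adjusted p = 0.49 and 0.288).

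Cell cycle genes stayed within 2-fold. Among 25 mitotic genes and 26 genes of G1/S and replication none was 2-fold apart. The mitotic genes passed 9 against 9 here and 4 against 14 (higher in AICAR) under quantile normalization, and the G1/S genes 11 against 5 here and 4 against 8. Regulators of the G1 phase moved more: Cdkn1a, the p21 inhibitor of cyclin-dependent kinases, was 1.11 ± 0.11 higher in CHIR99021, and Cdkn1c, the p57 inhibitor, 1.67 ± 0.07 higher in AICAR (adjusted p = 4.97e-05 and 5.44e-07). The other probe of Cdkn1a differed by 0.51, and the mean of both by 0.81. Targets of p53 passed 6 against 10 of 20 tested, with Cdkn1a the 1 member at least 2-fold higher in CHIR99021 (none with quantile normalization or spike-in scaling) and Fas, Bbc3 and Btg2, genes of cell death and growth arrest, 1.50 ± 0.09, 1.43 ± 0.06 and 1.38 ± 0.08 higher in AICAR (adjusted p = 3.56e-06, 5.78e-07 and 3.81e-06).

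**Figure D3:**
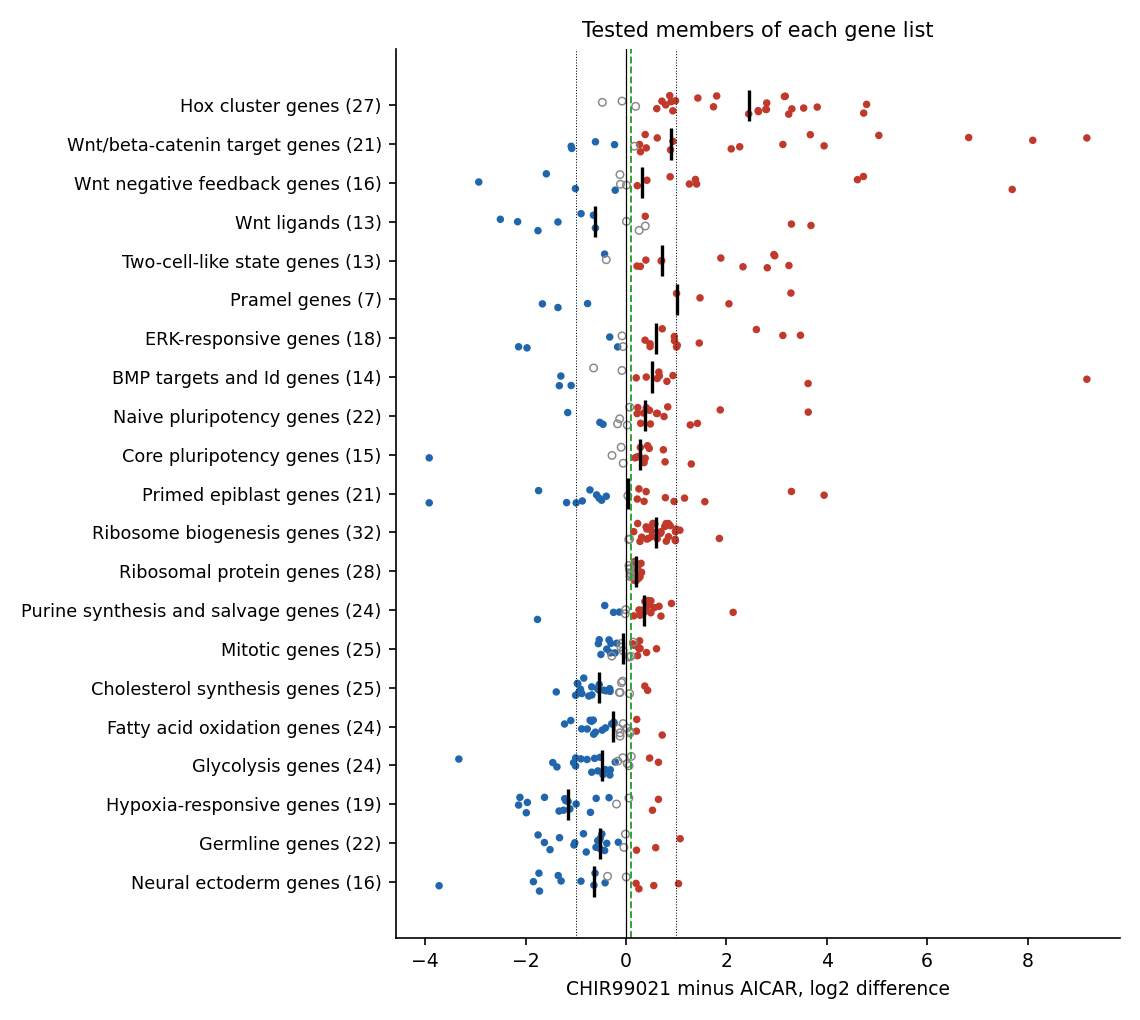
CHIR99021 minus AICAR log2 difference on the x axis for each tested member of 21 gene lists on the y axis, with the number tested in brackets, filled points for members that passed (red higher in CHIR99021, blue higher in AICAR), open points for members that did not, a black bar for the list's median, dotted lines at 2-fold and a dashed green line at the median of all features, 0.10. The Hox list has its median at 2.45 and the hypoxia list at -1.15, and fitted values of genes not above background in 1 group, such as Cdx2, depend on that background.

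Genes that respond to low oxygen were mostly higher in AICAR. Of 19 tested, 15 passed as higher in AICAR, 11 of them at least 2-fold, with a median of -1.15. The 2 that passed as higher in CHIR99021 were Hif1a, the oxygen-regulated factor itself, by 0.53 ± 0.08 and Pdk1, a pyruvate dehydrogenase kinase, by 0.65 ± 0.07 (adjusted p = 0.000846 and 8.45e-05), and Hif1a did not pass with spike-in scaling (adjusted p = 0.0673). The letters ACGTGC, the core that hypoxia-inducible factors are known to bind, were searched on both strands in the same 250 bases upstream. They can overlap the E-box CACGTG. They were in 1615 of the 32851 promoters (4.92%), in 953 of 12788 tested genes with an entry (7.45%), in 34 of 599 genes past the 2-fold test in the AICAR direction (5.68%) and in 16 of 304 in the CHIR99021 direction (5.26%). Of the hypoxia list 9 of 15 genes with an entry had them, and that list holds genes chosen as known targets of these factors. Among the 9 were Hif1a, which passed as higher in CHIR99021, and Egln1, which did not pass, and the rest differed in the AICAR direction. The stretches of Ddit4 (chr10:59951771-59952020, minus strand), Ero1a (chr14:45318573-45318822, minus strand) and Bnip3 (chr7:138909507-138909756, minus strand) are shown 5′ to 3′ with the matches in capitals, the last pair chosen after their values were seen. The match begins 187 bases before the start in Ddit4 and 64 in Ero1a, and Bnip3 holds 2 that overlap, beginning 109 and 107 bases before it.
Ddit4: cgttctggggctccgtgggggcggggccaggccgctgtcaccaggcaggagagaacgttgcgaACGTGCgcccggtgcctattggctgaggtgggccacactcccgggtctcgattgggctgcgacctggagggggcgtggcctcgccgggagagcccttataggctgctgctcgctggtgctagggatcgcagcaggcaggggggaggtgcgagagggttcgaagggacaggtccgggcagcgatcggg
Ero1a: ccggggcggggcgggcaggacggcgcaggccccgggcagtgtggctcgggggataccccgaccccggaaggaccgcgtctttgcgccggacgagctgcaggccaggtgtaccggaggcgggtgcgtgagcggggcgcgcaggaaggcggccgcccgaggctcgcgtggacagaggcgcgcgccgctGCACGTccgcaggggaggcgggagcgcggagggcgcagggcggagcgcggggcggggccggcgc
Bnip3: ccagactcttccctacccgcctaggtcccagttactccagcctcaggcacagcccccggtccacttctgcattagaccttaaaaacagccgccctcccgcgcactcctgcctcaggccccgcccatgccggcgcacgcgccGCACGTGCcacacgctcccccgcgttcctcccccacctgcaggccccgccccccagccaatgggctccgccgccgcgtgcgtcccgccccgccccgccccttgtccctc
The promoters of Vegfa and Adm in the table did not hold these letters in this window.

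Vegfa, the angiogenic growth factor, read 1.04, 1.10 and 1.10 with CHIR99021 and 3.23, 3.25 and 3.18 with AICAR, 2.14 ± 0.04 higher in AICAR (adjusted p = 3.51e-08). Ndrg1, a stress-responsive differentiation gene, read 2.22, 2.20 and 2.29 against 4.38, 4.43 and 4.24, 2.11 ± 0.07 higher in AICAR (adjusted p = 1.84e-07). For both genes the DMSO arrays, at 1.34, 1.39 and 1.41 and at 2.59, 2.73 and 2.68, lay between the groups and nearer CHIR99021. Ddit4, which restrains the growth kinase mTORC1, read 5.11, 5.63 and 4.95 against 7.31, 7.09 and 7.18, 1.97 ± 0.16 higher in AICAR (adjusted p = 1.96e-05), and its CHIR99021 arrays spread widely enough to span the DMSO arrays at 5.35, 5.49 and 5.41. Adm, the vasodilator peptide adrenomedullin, read -0.45, -0.47 and -0.45 against 1.46, 1.62 and 1.51, 1.99 ± 0.05 higher in AICAR (adjusted p = 9.32e-08), with DMSO at 0.85, 0.87 and 0.81. Ero1a, an oxidase of protein folding, and Bnip3, a mitophagy receptor, were 1.25 ± 0.08 and 1.12 ± 0.07 higher in AICAR (adjusted p = 4.83e-06 and 4.96e-06). Kdm3a, a histone demethylase, and the oxygen sensor Egln1 differed by 0.06 ± 0.05 and -0.19 ± 0.13 and did not pass (adjusted p = 0.308 and 0.231).

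Glycolysis genes were mostly higher in AICAR, 17 passing against 2 (Pdk1 and the glucose transporter gene Slc2a3) of 24 tested, with 6 at least 2-fold apart and a median of -0.49, and 4 to 7 were past 2-fold under normexp and the other scalings. Txnip, a glucose-responsive inhibitor of thioredoxin and of glucose uptake, read 1.28, 1.30 and 1.26 with CHIR99021 and 4.57, 4.53 and 4.73 with AICAR, 3.33 ± 0.06 higher in AICAR (adjusted p = 2.07e-08), with DMSO at 2.51, 2.50 and 2.45 between them. Pfkl, the liver phosphofructokinase, read 1.63, 1.57 and 1.63 against 3.22, 3.03 and 2.98, 1.46 ± 0.07 higher in AICAR (adjusted p = 1.45e-06). Eno2 and Aldoc, isoforms of enolase and aldolase, were 1.38 ± 0.06 and 1.05 ± 0.06 higher in AICAR (adjusted p = 7.84e-07 and 2.12e-06), while the isoforms Eno3 and Pgam1 differed by 0.03 ± 0.05 and 0.06 ± 0.05 and did not pass (adjusted p = 0.692 and 0.344).

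Genes of cholesterol synthesis and fatty acid oxidation were also mostly higher in AICAR. Of 25 cholesterol synthesis genes 18 passed as higher in AICAR and 2 as higher in CHIR99021, with a median of -0.54, while 2 were at least 2-fold apart, a count that moved to 0 with normexp and to 8 with quantile normalization or spike-in scaling. Insig1, the sterol-sensing anchor of the SREBP pathway, read -0.11, 0.10 and -0.09 with CHIR99021 and 1.09, 1.0 and 0.82 with AICAR, 1.0 ± 0.09 higher in AICAR (adjusted p = 2.55e-05). Leaving out CHIR99021 replicate 1 or AICAR replicate 1 left 1 gene past 2-fold, and leaving out AICAR replicate 3 made it 5. Fatty acid oxidation genes passed 14 against 3 (Slc25a20, Ppara and Eci1) of 24 in the AICAR direction, with Pdk4, the kinase that shuts off pyruvate dehydrogenase, 1.22 ± 0.08 and the mitochondrial carrier Ucp2 1.10 ± 0.08 higher in AICAR (adjusted p = 4.2e-06 and 8.1e-06).

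Of 17 fatty acid synthesis genes 7 passed as higher in AICAR and 3 as higher in CHIR99021, with a median of -0.09 that was -0.26 after quantile normalization, and 2 were at least 2-fold apart. Thrsp, a lipogenic regulator also called Spot 14, read -3.41, -3.29 and -3.34 with CHIR99021 and 0.31, 0.22 and 0.36 with AICAR, 3.64 ± 0.05 higher in AICAR (adjusted p = 1.2e-08), with DMSO at -2.0, -2.02 and -2.01. The desaturase gene Scd1 was 1.08 ± 0.09 higher in AICAR (adjusted p = 1.8e-05), and Srebf1, which encodes the factor that drives the pathway, differed by -0.05 ± 0.13 and did not pass (adjusted p = 0.751).

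The metabolic genes higher in CHIR99021 included those of betaine and dimethylglycine, a route that passes methyl groups from choline to methionine. Dmgdh, dimethylglycine dehydrogenase, read -0.48, -0.32 and -0.28 with CHIR99021 and -4.84, -4.93 and -4.47 with AICAR, a difference of 4.39 ± 0.46 (adjusted p = 7.25e-05). That standard error includes the spread of the DMSO arrays, whose SD was 1.07, against 0.10 with CHIR99021 and 0.24 with AICAR. Bhmt2 and Bhmt, methyltransferase genes of the same list, differed by 2.74 ± 0.14 and 1.81 ± 0.07 (adjusted p = 1.63e-06 and 3.56e-07). These were the 3 genes of 9 tested that were 2-fold apart, and for all 3 the DMSO mean was below both treated means. Dmgdh and Bhmt2 were not well above background on any DMSO array. Mtrr, which keeps methionine synthase active, was 0.95 ± 0.07 higher in CHIR99021 (adjusted p = 1.13e-05), and Pemt, a phospholipid methyltransferase, differed by 0.14 ± 0.08 and did not pass (adjusted p = 0.139, and 0.0385 without AICAR replicate 1).

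Purine genes bear on AICAR itself, whose active form is an intermediate of that pathway. Of 24 tested, 18 passed as higher in CHIR99021 and 4 (Ampd3, Prps1, Nt5c2 and Impdh2) as higher in AICAR, with a median of 0.37. With quantile normalization 11 passed as higher in CHIR99021 with a median of 0.16, and with spike-in scaling 7 with a median of 0.18. Nt5e, the ectoenzyme that makes extracellular adenosine, read 0.97, 0.89 and 0.91 against -1.35, -1.25 and -1.04, a difference of 2.14 ± 0.08 (adjusted p = 3.99e-07). Ampd3, an AMP deaminase, was 1.76 ± 0.29 higher in AICAR (adjusted p = 0.00103). Atic, the enzyme that consumes the active form of AICAR, and Adk, adenosine kinase, which makes it, were 0.57 ± 0.08 and 0.47 ± 0.05 higher in CHIR99021 (adjusted p = 0.000362 and 0.000136), and Adk did not pass with spike-in scaling (adjusted p = 0.0645). Pfas, an earlier enzyme of the pathway, was 0.91 ± 0.07 higher in CHIR99021 (adjusted p = 1.44e-05).

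Genes of AMPK and its upstream kinases were within 2-fold except 1. Camkk2, a calcium-dependent kinase that activates AMPK, read 4.23, 4.08 and 4.22 with CHIR99021 and 2.67, 2.79 and 2.63 with AICAR, a difference of 1.48 ± 0.07 (adjusted p = 8.26e-07). Of the catalytic subunits, Prkaa2 was 0.81 ± 0.08 higher in AICAR (adjusted p = 6.87e-05) and Prkaa1 differed by 0.15 ± 0.06 and did not pass (adjusted p = 0.0564), though it did with normexp (adjusted p = 0.0298) or without DMSO replicate 1 (adjusted p = 0.0335).

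**Figure D4:**
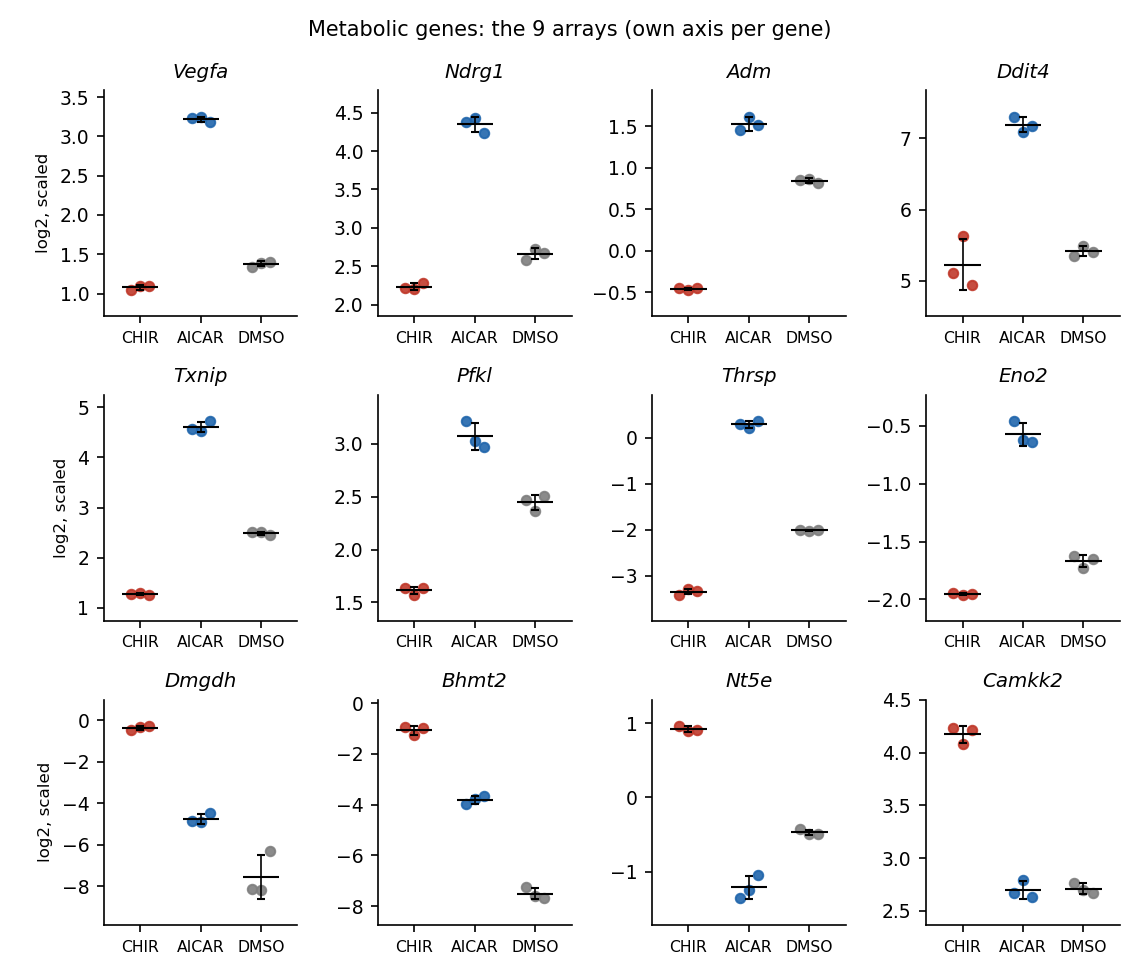
Log2 signal minus the array's 75th percentile on each of the 9 arrays for 12 metabolic genes, by treatment, with an axis of its own for each gene, points for arrays, bars for the mean and whiskers for the SD of 3 arrays. The 8 genes in the upper rows are higher on every AICAR array than on any CHIR99021 array, and the 4 in the lowest row are the reverse.

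Genes that respond to ERK, the kinase downstream of FGF, were more often higher in CHIR99021, 6 at least 2-fold against 2 in AICAR of 18 tested, with a median of 0.60 and 4 against 2 with spike-in scaling. Spry4, a feedback inhibitor of the pathway, read 0.49, 0.50 and 0.59 with CHIR99021 and -2.96, -3.25 and -2.65 with AICAR, a difference of 3.48 ± 0.14 (adjusted p = 4.79e-07), and DMSO at -1.35, -1.31 and -1.23 lay midway. Its relative Spry2 differed by 2.60 ± 0.04 (adjusted p = 1.78e-08). Ier3, an immediate early gene, and Fos, the AP-1 subunit, were 2.14 ± 0.29 and 1.97 ± 0.05 higher in AICAR (adjusted p = 0.000338 and 1e-07), and the phosphatase gene Dusp5 differed by -0.08 ± 0.28 and did not pass (adjusted p = 0.825).

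Of BMP signalling, Id3, an inhibitor of differentiation switched on by BMP, read 2.18, 2.26 and 2.22 against -1.29, -1.51 and -1.42, a difference of 3.63 ± 0.06 (adjusted p = 1.78e-08). The inhibitory Smad gene Smad6 and the phosphatase gene Dusp9 were 1.30 ± 0.06 and 1.33 ± 0.05 higher in AICAR (adjusted p = 9.45e-07 and 4.63e-07). Pmepa1, a target of TGF-beta and Nodal signals, was 1.97 ± 0.12 higher in CHIR99021 (adjusted p = 9.13e-06) with AICAR replicate 3 left out of its fit as an outlier spot, but the deposited series matrix gave 0.98 (adjusted p = 0.274). In the LIF pathway Socs2, a feedback inhibitor of cytokine receptors, was 1.30 ± 0.04 higher in CHIR99021 and Junb, an AP-1 subunit, 1.31 ± 0.09 higher in AICAR (adjusted p = 2.09e-07 and 6.96e-06), while Stat3, the effector of LIF, differed by 0.03 ± 0.08 and did not pass (adjusted p = 0.789), with probes that disagreed in sign, and after quantile normalization it was 0.21 higher in AICAR (adjusted p = 0.0498).

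Neural and germline genes were more often higher in AICAR than in CHIR99021. Of 16 neural ectoderm genes 6 were at least 2-fold higher in AICAR, with a median of -0.63, and 2 were so with normexp, with a median of -0.22. Pax3, a neural crest factor, was 1.05 ± 0.06 higher in CHIR99021 (adjusted p = 2.49e-06) and fell below 2-fold without AICAR replicate 2. Dll1, a Notch ligand, read -4.79, -4.80 and -4.80 with CHIR99021 and -1.09, -0.98 and -1.15 with AICAR, 3.72 ± 0.06 higher in AICAR (adjusted p = 1.2e-08). Nes, an intermediate filament gene of neural progenitors, and Hes5, a Notch effector, were 1.73 ± 0.06 and 1.72 ± 0.11 higher in AICAR (adjusted p = 3.5e-07 and 4.2e-06). Pax6, an eye and brain factor, was not well above background with CHIR99021 and was at least 1.54-fold higher in AICAR (means -5.17 and -7.01; adjusted p = 0.000699). Its DMSO mean of -2.02 was above both, and over the alternatives its difference was as small as -0.174. Over the 6 genes, DMSO lay above both treated means in 2, below both in 1, nearer CHIR99021 in 1 and nearer AICAR in 2. Of 22 germline genes 17 passed as higher in AICAR and 3 (Tex19.1, Sycp1 and Dazl) as higher in CHIR99021, with a median of -0.52. Mov10l1 and Asz1, both of the piRNA pathway, were 1.75 ± 0.15 and 1.51 ± 0.35 higher in AICAR, and the meiotic regulator Meioc 1.63 ± 0.08 (adjusted p = 2.38e-05, 0.00634 and 1.57e-06).

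Chromatin genes held a few wide differences. Of 28 Polycomb genes 13 passed as higher in CHIR99021 and 8 as higher in AICAR, with a median of 0.20 that fell to 0.05 after quantile normalization and 0.01 with spike-in scaling. At least 2-fold higher in CHIR99021 were Epop, a cofactor of Polycomb repressive complex 2, by 1.23 ± 0.08, and Cbx7, a chromodomain subunit of complex 1, by 1.01 ± 0.18 (adjusted p = 4.61e-06 and 0.0014), and these 2 became 1 with normexp and each scaling, and Cbx7 fell below 2-fold without CHIR99021 replicate 1, CHIR99021 replicate 3 or AICAR replicate 1. At least 2-fold higher in AICAR were 3 genes, in number the same with normexp and each scaling. Among them were Cbx8, also a chromodomain subunit of complex 1, by 3.24 ± 0.12, and Phf19, an accessory subunit of complex 2, by 2.58 ± 0.08 (adjusted p = 4.56e-07 and 1.7e-07). Cbx8 read -5.11, -5.16 and -5.25 with CHIR99021 and -1.97, -1.84 and -2.02 with AICAR, with no overlap. Ezh2, the methyltransferase of complex 2, differed by 0.02 ± 0.05 and did not pass (adjusted p = 0.668), and after quantile normalization it was 0.13 higher in AICAR (adjusted p = 0.0333). The stress genes Gadd45g and Gadd45b, linked to DNA demethylation, were 2.28 ± 0.07 and 2.13 ± 0.05 higher in AICAR (adjusted p = 1.24e-07 and 7.36e-08), whereas Dnmt1, the maintenance methyltransferase, differed by 0.03 ± 0.06 and did not pass (adjusted p = 0.677). The DMSO mean of Gadd45g, 3.36, lay near AICAR at 3.20, with CHIR99021 at 0.92. That of Gadd45b, 2.80, lay nearer CHIR99021 at 2.36, with AICAR at 4.48.

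Interferon-stimulated genes went both ways, 5 at least 2-fold higher in AICAR (2 with normexp) and 2 in CHIR99021 of 16 tested. Rsad2, the antiviral enzyme viperin, and Cxcl10, a chemokine, were not well above background with CHIR99021 and were at least 4.49-fold and 5.69-fold higher in AICAR (means -3.62 and -7.71, -3.28 and -6.77; adjusted p = 6.23e-05 and 4.48e-05). Over the alternatives their differences were as small as -0.746 and -0.715. The guanylate-binding protein genes Gbp2 and Gbp3 and the antiviral gene Oasl1 were 2.54 ± 0.11, 1.29 ± 0.24 and 1.47 ± 0.07 higher in AICAR (adjusted p = 8.23e-07, 0.00184 and 1.16e-06). Ddx58, the RNA sensor RIG-I, and Irf9, a factor of interferon signalling, were 1.63 ± 0.04 and 1.12 ± 0.05 higher in CHIR99021 (adjusted p = 7.54e-08 and 8.09e-07). Of 30 adhesion and matrix genes 11 passed as higher in CHIR99021 and 12 as higher in AICAR, with a median of 0.02, and 1 and 5 were at least 2-fold apart. The 1 was Cdh2, N-cadherin, by 1.57 ± 0.11 (adjusted p = 8.77e-06). Itga3, an integrin subunit, and Cldn7, a tight junction protein, were 1.95 ± 0.08 and 2.11 ± 0.10 higher in AICAR (adjusted p = 7.73e-07 and 1.04e-06). Plagl1, an imprinted zinc finger gene, read 3.46, 3.84 and 3.96 with CHIR99021 and -0.46, -0.44 and -0.63 with AICAR, a difference of 4.26 ± 0.12 (adjusted p = 1.38e-07). Its 4 probes ranged from 0.19 to 4.30, and their mean differed by 2.36.

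Markers of other cell types were read beside these groups. All 10 markers of embryonic stem cells were tested, and the summed linear level of the list was 584 to 609 with CHIR99021 and 625 to 671 with AICAR. Of these 3 passed as higher in CHIR99021 and 2 as higher in AICAR, with a median of -0.11. Fibroblast markers summed to 2.56 to 2.70 and 3.53 to 4.26, and Postn, Lum, Fap, Twist2 and Prrx1 were not well above background on any array. Trophoblast markers summed to 24.8 to 26.3 and 27.1 to 28.0, with Plac1 and Tpbpa not well above background on any array. Primitive endoderm markers summed to 89.2 to 91.0 and 117 to 123, and of 14 tested 3 were at least 2-fold higher in CHIR99021 and 1 in AICAR (1 and none with normexp). Of the 14, 7 passed as higher in CHIR99021 and 6 as higher in AICAR, with a median of 0.38. All 4 sums were higher on each AICAR array than on any CHIR99021 array, and their part in the differences above was not tested. Bright members weigh most in a sum, and levels of different probes are not comparable, so a sum need not follow the list's median. Krt7 and Plet1, markers of the trophoblast list, were 2.39 ± 0.13 and 1.82 ± 0.06 higher in AICAR (adjusted p = 2.14e-06 and 1.82e-07). That list split, with 3 of 10 tested passing as higher in CHIR99021 and 4 as higher in AICAR, and a median of 0.06.

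Several of the widest differences lay outside all lists. Btla, an inhibitory receptor of lymphocytes, and Khdc1a, a gene of oocytes and early embryos, were not well above background with AICAR and were at least 53.8-fold and 9.97-fold higher in CHIR99021 (means -0.29 and -8.12, -2.73 and -8.23; adjusted p = 2.07e-08 and 1.72e-08). Their differences were as small as 3.075 and 1.436 over the alternatives. Accsl, a gene related to plant ethylene synthesis enzymes, read 2.12, 2.14 and 2.03 with CHIR99021 and -2.35, -2.56 and -2.57 with AICAR, a difference of 4.59 ± 0.08 (adjusted p = 1.72e-08). The channel gene Cnga4 and the choline transporter family member Slc44a5 differed by 4.74 ± 0.25 and 4.59 ± 0.47 (adjusted p = 1.98e-06 and 6.85e-05), with 1 of the 3 AICAR arrays above background for each. The other probe of Slc44a5 differed by 0.68.

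In the AICAR direction, Vstm2l, an immunoglobulin-domain gene, read -3.16, -3.15 and -3.11 with CHIR99021 and 1.45, 1.28 and 1.12 with AICAR, 4.42 ± 0.08 higher in AICAR (adjusted p = 2.07e-08). Foxn4, a forkhead factor of retina and spinal cord, read -0.80, -0.87 and -0.99 against 2.89, 2.91 and 2.74, 3.74 ± 0.08 higher in AICAR (adjusted p = 3.72e-08). Tmem235, a transmembrane protein gene, Meltf, melanotransferrin, Drd4, a dopamine receptor, and Grin2c, a glutamate receptor subunit, were 4.15 ± 0.10, 3.91 ± 0.10, 3.78 ± 0.09 and 3.78 ± 0.14 higher in AICAR (adjusted p = 6.16e-08, 8.26e-08, 7.36e-08 and 4.56e-07). Mall, Lrtm2, Ptpre, Vsig8, Rnf186, Gpr182 and Ptgir were not well above background on any CHIR99021 array and were at least 17.2-fold, 6.33-fold, 5.59-fold, 7.20-fold, 3.62-fold, 6.69-fold and 5.09-fold higher in AICAR, with adjusted p between 4.71e-08 and 0.000113. Their AICAR means were -1.69, -3.13, -3.31, -2.94, -3.94, -3.05 and -3.44, and their CHIR99021 means -6.10, -7.52, -7.44, -7.0, -7.97, -7.05 and -7.31. These bounds are for the main processing. Over the alternatives the differences, in the same order, were as small as -1.776, -1.003, -0.806, -1.097, -0.713, -0.915 and -0.863.

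The DMSO level was used to place the treated states. Of the 1413 features at least 2-fold higher in CHIR99021, the DMSO mean lay above both treated means in 433 (30.6%), below both in 207 (14.6%), between and nearer CHIR99021 in 479 (33.9%) and between and nearer AICAR in 294 (20.8%). Of the 2232 higher in AICAR, DMSO was above both in 201 (9.01%), below both in 415 (18.6%), nearer CHIR99021 in 1020 (45.7%) and nearer AICAR in 596 (26.7%). These are positions of means with no test. The control arrays are shared by both distances, so they are not independent.

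**Figure D5:**
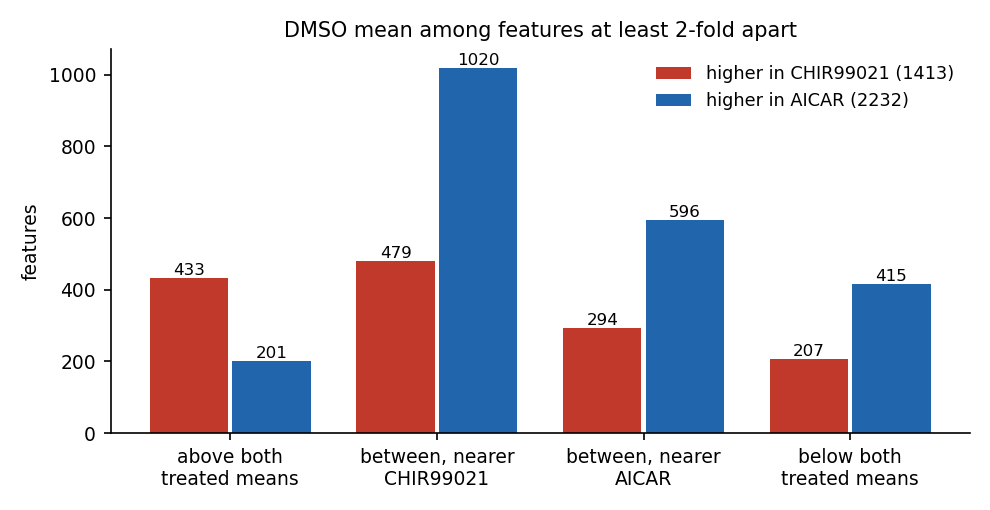
Number of features (y axis) at least 2-fold apart and passing, by where the DMSO mean lies relative to the CHIR99021 and AICAR means (x axis), red for the 1413 features higher in CHIR99021 and blue for the 2232 higher in AICAR. The tallest bar is that of 1020 features higher in AICAR whose DMSO mean is nearer CHIR99021.

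DMSO lay between the treated means and at least 2-fold from each in 35 of the features higher in CHIR99021 and in 99 of those higher in AICAR. Spry4 above was among them, at 1.82 from DMSO with CHIR99021 and -1.66 with AICAR. S100g, a calcium-binding protein gene, read -2.43, -1.48 and -2.60 with CHIR99021, -5.40, -5.58 and -5.42 with AICAR and -4.60, -2.36 and -4.63 with DMSO. The S100g DMSO array at -2.36 lay among the CHIR99021 arrays, so its placement rests on the mean of widely spread DMSO values. Vstm2l was at -1.93 from DMSO with CHIR99021 and 2.50 with AICAR, and Foxj1, the regulator of motile cilia, at -1.57 and 1.97, with only 1 CHIR99021 array above background for Foxj1. Edn1, the vasoconstrictor endothelin, and Pcdh18, a protocadherin gene, were not well above background with AICAR or DMSO and were at least 6.61-fold and 2.60-fold higher in CHIR99021 than in AICAR (means -3.32 and -7.88, -4.67 and -8.29; adjusted p = 3.05e-07 and 1.42e-07), so their place relative to DMSO is that of fitted background values. Rab40b, a small GTPase gene, was not well above background with CHIR99021 and was at least 3.48-fold higher in AICAR (means -3.99 and -7.64; adjusted p = 1.37e-05). Over the alternatives the differences of Edn1, Pcdh18 and Rab40b were as small as 1.037, 0.538 and -0.572.

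The 2-fold boundary was crowded. Just inside it lay Hebp1, Mybpc2 and Tns1, higher in AICAR by 1.0 ± 0.10, 1.0 ± 0.06 and 1.0 ± 0.06, and Pir, higher in CHIR99021 by 1.0 ± 0.05, and just outside it lay Nifk at 1.0 ± 0.06, Olfr168 at 1.0 ± 0.20 and Snhg3 at 1.0 ± 0.07, higher in CHIR99021, and Dnaic2 at 1.0 ± 0.07, higher in AICAR.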

How the data were processed

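Total RNA of 9 samples was measured on 1-colour Agilent arrays, and per the file headers the deposited scanner files were made with Feature Extraction 10.7.3.1, which gives each spot's processed signal as a linear intensity. The deposited series matrix holds log2 values per probe that correlated with the log2 processed signal of each array at 0.99962 to 0.99998. Its columns share a median of 5.18 and a 75th percentile of 8.90, their scaling and centring by the authors were not given in the sources used here, so the matrix served as an alternative only. The processed signal of the 59305 spots per array that are no controls was taken as log2 minus the array's 75th percentile, which was 567 to 617 in intensity. The software's outlier spots (136 to 192 on an array) were dropped, and a probe's spots were averaged.

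A probe was kept where at least 3 of the 9 arrays had it well above background, 37742 of 55681, and the probe with the highest mean stood for each gene. Names came from probe accessions matched to the RefSeq table of GRCm38.p6 (27235 probes matched, 28446 did not). Promoter sequences are RefSeq's for that build, while the file headers name mm9, so no other position is given. All 9 arrays were fitted with limma 3.58.1 in R 4.3.3 (lmFit, eBayes, and treat for the 2-fold test), with CHIR99021 minus AICAR as the contrast and Benjamini-Hochberg adjustment over all 26866 features. Where no array of a group had a gene well above background, the fold is a lower bound. Its denominator was averaged over that group's arrays from the larger of 2 signals, the gene's own and the array's dimmest probe that was well above background. The number of arrays, 3 per group, limits the precision.

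The genes named are the 15 with the largest differences each way, up to 4 passing members of each list with the largest and up to 2 not passing with the smallest differences, a list of 29 genes named whatever their result, the 10 with the widest opposite placement about DMSO and the 8 features nearest to 2-fold. Not every gene the rule picked is described, and some are not reported here. Members outside the rule that spell out a count of 5 or fewer were chosen after their values were seen. The comparison, the lists and the rule were chosen with earlier results of these data known, so lists carry counts and medians and no test. Alternatives were normexp background correction with an offset of 50 on the median signal (the files hold no mean signal), quantile normalization, the series matrix, spike-in scaling, other filters, the mean of a gene's probes, the 6 treated arrays alone, a replicate block and each array left out. A slide block could not be fitted, since each slide holds 1 group. The steps were tested on simulated data.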

Additional observations from a re-analysis of the deposited data

How the results depend on the processing

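Counts over all features held within 1.5-fold in all alternatives except normexp, whose offset of 50 draws dim signals together: with it 1371 features were at least 2-fold apart (610 higher in CHIR99021 and 761 in AICAR), 665 passed the 2-fold test (297 and 368) and DMSO lay between the treated means for 911 in place of 2389. The split by direction moved with spike-in scaling, from 59.5% to 35.2% of passing features higher in CHIR99021, from 38.8% to 25.9% of those at least 2-fold apart and from 38.9% to 24.3% of those past the 2-fold test, and from 32.4% to 18.6% of those with DMSO between; the cause was not tested. Leaving out each array in turn gave 14934 to 16040 passing, 3604 to 3711 at least 2-fold, 1498 to 1656 past the 2-fold test and 2359 to 2445 with DMSO between. With the replicate number as a block these were 15682, 3635, 1596 and 2384. Without the DMSO arrays, 15362 features passed, 3622 were at least 2-fold apart and 1540 passed the 2-fold test. Same-numbered CHIR99021 and AICAR arrays deviated together at r of -0.023, 0.012 and 0.089, and not every array correlated best with its own number, so the numbers were not taken to pair the samples, and the block changed the call of none of the 195 genes given with values. Of those genes 173 kept their call in every alternative in which they were tested, and each gene that passed here kept its direction. A change of sign was not counted where neither fit passed, as for Dnmt1, whose difference ranged from -0.161 to 0.099. Direction turned with a passing call in the alternative for Ezh2 (-0.133 with quantile normalization, -0.136 with the series matrix) and Stat3 (-0.207 and -0.21). Neither of them passed here. Spike-in scaling ended 7 calls and brought 3, and normexp ended 2 and brought 3. Genes not above background in a group have only a bound, which concerns 238 features at least 2-fold higher in CHIR99021 and 465 in AICAR. Each such bound is for the main processing and need not hold in the alternatives.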
